A study of Homo sapiens and Mus musculus with 56 samples.

Results

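DBM2 is 1 of 5 human glioblastoma lines that were grown as subcutaneous tumours in nude mice, and the subject here is the vehicle baseline of its tumours on mouse gene arrays. The members are the 3 mouse arrays whose labels name DBM2 tumours given vehicle, out of 56 arrays in all. They were compared with the 11 vehicle arrays of the other lines on the same platform, namely 2 of SF295 and 3 each of U118, U87M2 and U251M2. Each of those lines was first averaged over its own arrays, and the 4 group means then carried equal weight, so that a difference below is the DBM2 mean minus the mean of 4 line means.

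Every tumour was started from 500000 cells in phosphate-buffered saline placed under the skin of the flank of a nude mouse, a strain that lacks a thymus and therefore most mature T cells but keeps macrophages, natural killer cells, B cells and vessels. The vehicle was 0.5% methylcellulose 400 with 0.05% Tween 80, given for 7 days. The matching treated tumours, also 3 arrays for DBM2, received V-4084, an inhibitor of the MET receptor kinase, at 30 mg per kg for 7 days, and they serve here as separate arrays of the same line. The 28 human arrays of the series are labelled as cultured cells of the same lines given DMSO or V-4084, and 200 ng of RNA was used per array on both platforms. Whether a line is a single clone, and whether repeats came from separate mice, is not given in the labels, so the p-values describe differences between arrays.

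In a human tumour grown in a mouse, the cancer cells carry the human genome and the vessels, fibroblasts and immune cells come from the host. Probes made against mouse transcripts read that host compartment, called the stroma, and they also bind human transcripts where the sequences of both species are close. The stroma of gliomas and other solid tumours is built largely of macrophages, vessels and matrix-producing fibroblasts, and matrix proteins such as tenascin-C, collagens and metalloproteases shape the space between the cells. For that reason each mouse-array difference is given beside the difference for the same gene symbol on the human arrays, and the share of human RNA in any mouse signal was not tested. Whether the human arrays hold cultured cells alone, as labelled, was not tested either, and muscle transcript values that bear on it are given with the comparison of both platforms.

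Values are log2 probe-set intensities, so differences are on a log2 scale. The medians of the 14 vehicle arrays ran from 6.11 to 6.29 and their SDs across probe sets from 1.77 to 1.88. A gene is represented by 1 probe set, which gave 19938 mouse genes, and 14334 of them had the same symbol on the human platform. The 3 DBM2 arrays correlated with each other at r from 0.983 to 0.991 over all genes, and the median absolute difference between a pair of them was 0.108 to 0.135. Skeletal muscle transcripts stood apart among these 3 arrays. Ckm, the creatine kinase of muscle, read 7.17, 8.36 and 10.10 on repeats 1, 2 and 3, and the mean of 24 muscle genes ran from 6.21 to 8.81.

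On the mouse arrays DBM2 tumours differed from the mean of the other tumours, with matrix and protease genes among the highest and macrophage genes among the lowest. At a Benjamini-Hochberg adjusted p under 0.05 in limma, 3091 genes (15.5% of those tested) were called. Of them 1315 were higher in DBM2 (6.6%) and 1776 were lower (8.91%). A change of at least 1.5-fold was reached by 275 of the higher and 408 of the lower genes, and a change of at least 2-fold by 77 and 58. The median difference of all genes was 0.026. Leaving out repeat 2 of DBM2 gave 1958 calls and leaving out repeat 3 gave 1855.

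The distance of DBM2 from the other lines was uneven. Against U251M2 alone 856 genes were called (4.29%), against U87M2 1865 (9.35%), against U118 5316 (26.7%) and against SF295 6339 (31.8%). The root mean square difference of group means followed the same order, with 0.215 for U251M2, 0.255 for U87M2, 0.374 for U118 and 0.397 for SF295. A gene that passed the test against each of the 4 lines in the same direction is called set apart below. There were 167 such genes on the higher side (0.838% of all genes), with a median difference of 0.85, and 98 on the lower side (0.492%), with a median of -0.74. By overlap of arrays, the 3 DBM2 arrays lay above all 11 other arrays for 458 genes (2.3%) and below all of them for 406 (2.04%). Without repeat 2 of DBM2 the genes set apart numbered 103 and 53, without repeat 1 the higher ones numbered 111 and without repeat 3 the lower ones numbered 52. The lower ones also numbered 61 and 64 without repeat 1 or repeat 3 of U251M2.

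Among matrix genes the tenascin-C gene led. Tnc, which encodes a large glycoprotein of wound and tumour matrix, read 12.28, 12.30 and 12.20 in the DBM2 arrays. The other 11 arrays ran from 7.47 to 10.72 with a median of 9.66. No other array came near the DBM2 level, and U118 was the lowest group. The difference was 2.84 (SE 0.16, adjusted p = 7.26e-12), or 7.15-fold, and Tnc was set apart from all 4 lines, by 1.66 from U251M2 and by 4.55 from U118. On the human arrays TNC went the other way, with a DBM2 difference of -1.28.

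Mmp9, a gelatinase that cuts basement membrane collagen, was the second of these genes. Its DBM2 arrays read 8.62, 10.28 and 8.77, and the others ran from 6.47 through a median of 6.96 to 7.57. Repeat 2 was well above the other two, and even the lowest of the 3 was above every other array. The difference was 2.31 (SE 0.22, adjusted p = 3.26e-08), and MMP9 on human arrays differed by -0.15 without passing the test. Timp1, a secreted inhibitor of metalloproteases, read 10.45, 10.46 and 10.45 against 7.46 to 9.37 in the others, median 8.71. Its 3 DBM2 arrays were nearly equal and did not overlap the rest. Its difference was 1.90 (SE 0.16, adjusted p = 7.92e-09), and TIMP1 was also higher in DBM2 on human arrays, by 0.64.

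Igfbp5, a binding protein that controls access of insulin-like growth factors to their receptor, read 10.79, 10.86 and 10.80 in DBM2. The others ran from 8.20 through 8.94 to 9.37, all below DBM2. The difference of 1.96 (SE 0.11) had an adjusted p of 7.23e-12, and the human arrays gave -0.91 for IGFBP5. Ptgs2, the inducible cyclooxygenase that starts prostaglandin synthesis, read 9.05, 8.34 and 8.48 against 5.67 to 7.58, median 7.00. Again there was no overlap, and the difference was 1.79 (SE 0.18), beside -0.17 for PTGS2 on human arrays, which did not pass. Fap, a surface protease of activated fibroblasts, read 8.70, 8.88 and 8.25 against 6.62 to 7.45, median 7.18, a difference of 1.47 (SE 0.15). FAP on human arrays was lower in DBM2, by -1.48. Ccl11, the eosinophil attractant eotaxin, read 9.35, 9.14 and 9.11 against 7.09 to 7.97, median 7.68. It also stood clear of every other array, with a difference of 1.59 (SE 0.16), and CCL11 on human arrays differed by -0.28.

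For another group of leading genes the human arrays showed a difference of the same direction. Cnksr2, a scaffold protein of Ras signalling that is best known from neurons, marks these tumours. Its DBM2 arrays read 7.28, 7.36 and 7.08, against 4.74 to 6.81 in the others with a median of 5.53. U251M2 came closest at a mean of 6.56 and SF295 was the lowest at 4.95. The difference was 1.69 (SE 0.09, adjusted p = 2.01e-12), and Cnksr2 was set apart from each line, by 0.68 from U251M2. On human arrays the CNKSR2 difference was 2.34, with group means of 8.43 in DBM2, 7.49 in U251M2, 6.13 in U87M2, 5.47 in SF295 and 5.29 in U118. DBM2, U251M2 and U87M2 held the first 3 places in this order on both platforms, with U118 and SF295 below them.

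Slc20a1, a sodium-dependent phosphate importer, read 10.87, 10.84 and 10.61 against 8.30 to 9.31, a difference of 2.14 beside 1.69 on human arrays. Hs6st2, which adds sulfate to heparan chains, was 2.83-fold higher and had the largest human-array difference among the genes named here so far, 3.81. Fibin, a secreted factor of limb development, differed by 1.92 and by 2.98 on human arrays. Piezo2, a mechanically gated ion channel, differed by 1.46 and by 1.87 there. Gpr39, a zinc-sensing receptor, differed by 1.65 and by 0.89, and the membrane protein gene Dcbld2 by 1.97 and by 0.77. All of these DBM2 arrays lay above every other array on the mouse platform. The last of the 15 largest increases was Defb48, a beta-defensin, at 1.45, with no human gene of that symbol to set beside it.

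Of the 15 largest increases, 14 had a human partner, and the human difference passed in the same direction for 8 and in the opposite direction for 4. The largest increases whose human partner differed by under 0.5 or went the opposite way included, beyond those above, 4 further genes. Bmpr1b, a receptor for bone morphogenetic proteins, differed by 1.38 beside 0.02 on human arrays. Smoc2, a matricellular calcium-binding protein, differed by 1.37 beside 0.11, and the membrane-anchored semaphorin gene Sema7a by 1.33 beside 0.04. Sdc1, the heparan sulfate proteoglycan syndecan-1, differed by 1.33 beside -0.45. Of these, only the SDC1 difference passed the test on the human arrays. Among genes whose symbol is not on the human platform, which need not lack a human counterpart, Abca8a (1.29), Pak3 (1.23), Mt2 (1.18) and Serpinb2 (1.12) were the largest after Defb48. Abca8a encodes a lipid transporter, Pak3 a kinase downstream of small GTPases, Mt2 a metallothionein and Serpinb2 an inhibitor of plasminogen activators.

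**Figure D1:**
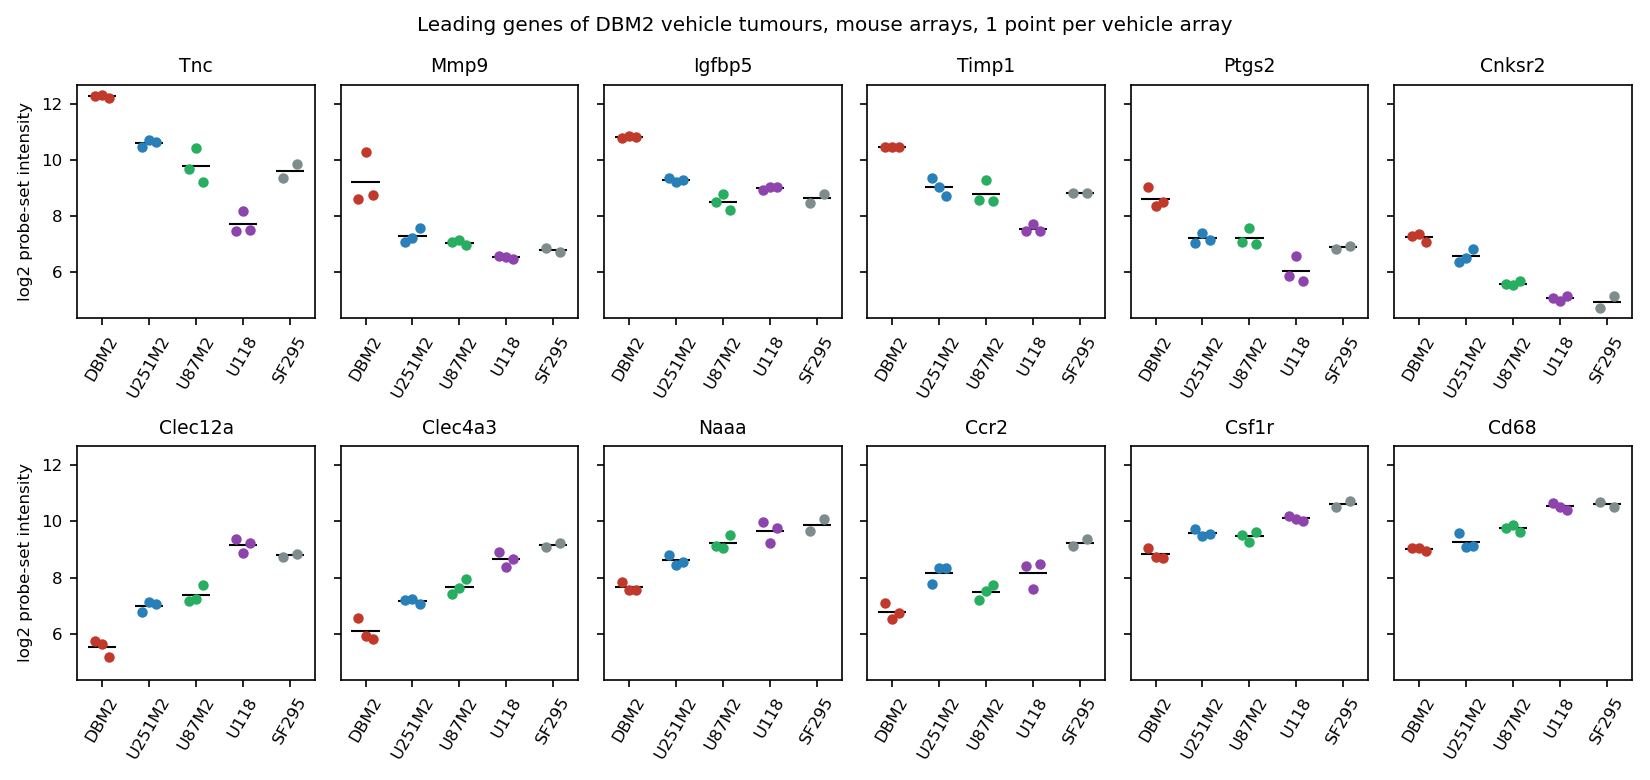
Log2 probe-set intensity (vertical axis) of 12 genes on the 14 mouse vehicle arrays, 1 point per array, grouped by line along the horizontal axis, with a bar at each group mean. The 3 DBM2 arrays sit above all others for the 6 genes of the upper row (Tnc from 12.20 to 12.30 against at most 10.72) and below all others for the 6 genes of the lower row (Clec12a from 5.18 to 5.74 against at least 6.77).

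Macrophage and monocyte genes were the clearest low group in DBM2 tumours. Of 24 measured genes of this list, 19 were lower and none was higher, with a median difference of -0.78, against 8.91% lower and a median of 0.026 over all genes. For 10 of the 24 the DBM2 arrays lay below every other array, beside 2.04% of all genes. The mean level over the list ran from 8.18 to 8.41 on the DBM2 arrays, from 8.48 to 8.54 for U251M2, from 8.49 to 8.58 for U87M2, from 9.31 to 9.52 for U118 and from 9.71 to 9.75 for SF295. DBM2 was thus lowest, close below U251M2 and U87M2 and further below U118 and SF295. Counted against single lines, 23 of 24 were lower than in SF295 (14.7% of all genes), 20 than in U118 (12.8%), 12 than in U87M2 (4.65%) and 5 than in U251M2 (2.28%). In whole tumours, fewer cells of a type and less RNA per cell cannot be told apart.

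The largest decrease of all was Clec12a, an inhibitory lectin receptor of myeloid cells. It read 5.74, 5.63 and 5.18 in DBM2, and from 6.77 through 7.75 to 9.37 in the others. Every DBM2 array was below every other array, and the gap was widest against U118. The difference was -2.57 (SE 0.14, adjusted p = 2.89e-12), while CLEC12A on the human arrays differed by -0.03. Clec4a3, a related myeloid lectin, read 6.57, 5.92 and 5.81 against 7.04 to 9.22, median 7.95. Its difference was -2.06 (SE 0.15), and that of Clec4a1, of the same receptor family, was -2.03 (SE 0.16). Both were set apart from all 4 lines.

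Ccr2, the receptor that draws monocytes out of the blood, read 7.08, 6.52 and 6.75 against 7.22 to 9.37, median 8.32. The groups did not overlap, although repeat 1 came close to the lowest U87M2 array. The difference was -1.47 (SE 0.18, adjusted p = 1.51e-06). Csf1r, the growth factor receptor on which macrophages depend, read 9.06, 8.75 and 8.70 against 9.27 to 10.73, median 9.71. It was also below every other array, with a difference of -1.11 (SE 0.10). Fcer1g, a signalling chain of Fc receptors, differed by -1.19, Fcgr1, a high-affinity receptor for antibodies, by -1.09, and Itgam, the integrin chain CD11b, by -1.08. Of these 3, Fcer1g was set apart from all 4 lines. Over the 21 list genes with a human partner, 4 were lower and 2 higher in DBM2 on the human arrays, with a median of -0.06. Over all genes with a partner 20.3% were lower and 15.6% higher there, so the lower share of this list was near that of all genes.

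Other leading decreases were genes of lysosomes and white blood cells. Naaa, a lysosomal amidase of fatty acid amides, read 7.83, 7.57 and 7.56 against 8.44 to 10.10, median 9.23, and differed by -1.69 (SE 0.14). It was set apart from each line, beside 0.07 for NAAA on human arrays. Arsb, a lysosomal sulfatase of dermatan sulfate, also differed by -1.69 (SE 0.15), whereas ARSB was higher in DBM2 on human arrays by 1.06. Cd72, an inhibitory receptor of B cells and some macrophages, differed by -1.58, Alox5ap, which feeds the 5-lipoxygenase that makes leukotrienes, by -1.51, and Cd180, a Toll-like surface receptor, by -1.27. Pld4, a phospholipase family member of myeloid and dendritic cells, differed by -1.25, and Fyb, an adaptor of T cell and myeloid signalling, by -1.01. These 5 genes lay below all other arrays in DBM2.

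Further genes of the 15 largest decreases were of mixed kinds. Tm6sf1, which encodes a membrane protein, differed by -1.37 and the histone gene H2bc3 by -1.25, both set apart from each line. Ccl12, a monocyte attractant, differed by -1.59, but its difference from U251M2 did not pass (-0.41, adjusted p = 0.464). Fmod, the collagen-binding proteoglycan fibromodulin, read 6.05, 5.98 and 6.07 against 6.14 to 8.77, and was near the U118 level, from which it differed by -0.25 (adjusted p = 0.580). Cpxm2, a carboxypeptidase-like secreted protein, differed by -1.36 over all lines and by -0.72 from U118 (adjusted p = 0.0608). Of the 15 largest decreases, 12 had a human partner, and the human difference passed in the same direction for 3 and in the opposite direction for 1.

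Genes of dendritic cells and of antigen presentation by MHC class II were lower where they differed from the mean of the 4 lines. Of 15 measured, 8 were lower and none was higher, with a median difference of -0.56, beside 8.91% lower of all genes. The class II chain genes H2-Aa (-1.16), H2-Ab1 (-1.05) and H2-Eb1 (-0.86), their loading factor H2-DMa (-0.96) and the invariant chain Cd74 (-0.78) were among them, as was Cd209a, a lectin of monocyte-derived dendritic cells (-1.11). None of the 15 was set apart from all 4 lines. Against single lines 10 of the 15 were lower than in U118 (12.8% of all genes) and 8 than in SF295 (14.7%). Against U251M2 5 were lower (2.28%) and against U87M2 1 (4.65%). The list mean was 7.23 in both DBM2 and U87M2. In each comparison with SF295, U118 and U87M2, 1 gene was higher. Of 16 natural killer and T cell genes 7 were lower and none was higher, with a median of -0.21, beside 8.91% lower of all genes. Against single lines 8 were lower than in U118 (12.8% of all genes) and 5 than in SF295 (14.7%). Lower genes numbered 2 against U251M2 (2.28%) and 0 against U87M2 (4.65%). Klrk1, the activating receptor NKG2D, read 5.26, 5.08 and 5.18 against 5.38 to 6.93 in the others, a difference of -0.89. Il2rb, a chain of the interleukin-2 and interleukin-15 receptors, differed by -0.85, Nkg7, a protein of cytotoxic granules, by -0.87, and Gzma, a granule protease, by -0.59. Without repeat 1 of DBM2, or without SF295 in the mean, 4 of the 16 were lower. The calls of Nkg7 and Cd209a were lost without U118 in the mean.

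Neutrophil, B cell and mast cell genes showed few calls. Among 12 neutrophil genes S100a9, a calcium-binding alarmin of neutrophils, was higher by 0.30 and Csf3r, the receptor for granulocyte growth factor, was lower by -0.45. Both counts were near the shares of all genes, 6.6% higher and 8.91% lower. None of 8 B cell genes was called, and of 8 mast cell genes Kit, the stem cell factor receptor, was lower by -0.34. The call of S100a9 was lost in 13 of 25 other fits, that of Csf3r without repeat 2 or repeat 3 of DBM2 or without SF295 in the mean, and that of Kit without repeat 3 of DBM2 or without U118. Of 30 chemokine genes 2 were higher, near the share of all genes, and 7 lower, beside 8.91% of all genes, with a median of -0.23. Against U87M2 alone 2 were lower (4.65% of all genes) and 4 higher (4.7%). Against U251M2 1 was lower (2.28%) and 3 were higher (2.02%). Besides Ccl11, Cxcl14, a chemokine of skin and stroma, was higher by 1.03. The lower ones included Ccl17 (-1.24), an attractant of T cells, Ccl5 (-1.11), which attracts T cells and monocytes, and Cxcl9 (-1.08), which interferon gamma induces. The lower chemokines numbered 3 without repeat 3 of DBM2, 4 without SF295 in the mean, 2 without U118, 11 without repeat 2 of U118 and 11 without U87M2 or U251M2. Cxcl9 lost its call in 9 of 25 other fits, and Ccl17 without repeat 3 of DBM2 or without U118. Of 11 complement genes 3 were lower, beside 8.91% of all genes. They were Cfp (-0.78), C5ar1 (-0.76) and C3ar1 (-0.73), which encode properdin and the receptors of the fragments C5a and C3a.

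Interferon-induced genes were lower in DBM2 than in SF295 and U118, while U87M2 and U251M2 gave no call. Against the mean of 4 lines 16 of 24 were lower (8.91% of all genes), with a median of -0.45 and a range of -0.84 to -0.24. Against SF295 22 were lower (14.7% of all genes) and against U118 all 24 (12.8%). Against U87M2 and U251M2 none of the 24 was called in either direction. The count of 16 became 6 without SF295 in the mean, 6 without U118, 9 without repeat 2 of DBM2 and 8 without repeat 3. Mx1, an antiviral GTPase, read 5.63, 5.74 and 5.49 against 5.55 to 7.87, median 5.96, and differed by -0.84 (SE 0.17). Its DBM2 arrays overlapped the lowest of the others. Irf7, the transcription factor that amplifies interferon production, differed by -0.77. Of 17 human partners 5 were higher in DBM2 and 2 lower, beside 15.6% and 20.3% of all partners. B2m, the light chain of MHC class I, was lower by -0.57, and of 9 class I presentation genes 3 were lower (8.91% of all genes). That count was 6 without repeat 2 of U118, 7 without U87M2 in the mean, 5 without U251M2, and 1 without SF295 or without repeat 2 of DBM2. Of these 9 genes 7 were higher on the human arrays, beside 15.6% of all partners.

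Genes of blood vessel endothelium were lower in DBM2 tumours, and this difference held against each line for several of them. Of 21 measured 13 were lower and none was higher, beside 8.91% and 6.6% of all genes, with a median of -0.40. On the lower side 5 were set apart from all 4 lines, beside 0.492% of all genes. Pecam1, the junction protein CD31, read 8.17, 7.99 and 7.79 against 8.51 to 9.19, median 8.57. All 3 arrays were below the lowest of the others, with a difference of -0.74 (SE 0.09, adjusted p = 1.52e-06). Esam, an adhesion molecule of endothelial junctions, differed by -0.83, and the VEGF receptor genes Flt1 and Kdr by -0.74 and -0.67. These 4 were all set apart. Emcn, a surface mucin of veins and capillaries, differed by -0.73 and Esm1, a secreted product of sprouting tip cells, by -0.86, the latter with a wide SE of 0.28 and lost in 8 of 25 other fits. Against single lines 16 of the 21 were lower than in U87M2 (4.65% of all genes), 14 than in U118 (12.8%), 9 than in U251M2 (2.28%) and 8 than in SF295 (14.7%). On human arrays 7 of the 21 were lower and 3 higher, against 20.3% and 15.6% of all partners, with a median of -0.16.

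Signals that act on vessels went in both directions, with 5 of 18 higher and 5 lower, beside 6.6% and 8.91% of all genes. Angpt1, the ligand that stabilises vessels through the Tie2 receptor, read 6.10, 5.94 and 5.83 against 4.68 to 5.37, median 5.18. It was set apart on the higher side, with a difference of 0.86 (SE 0.11). Dll4, the Notch ligand of tip cells, read 7.23, 7.25 and 7.21 against 7.54 to 8.52 and was set apart on the lower side, at -0.75 (SE 0.12). Angpt2, which opposes Angpt1 at Tie2, differed by -0.82, and Apln, a peptide of growing vessels, by -0.60. Of the platelet-derived growth factors, Pdgfb was lower by -0.62 and Pdgfa higher by 0.52. The higher ones numbered 3 without repeat 2 of DBM2 or without U118 in the mean, and the lower ones 3 without repeat 3 of DBM2. Angpt2 and Apln lost their calls without U87M2 in the mean, and Apln also without repeat 3 of DBM2.

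Of 6 lymphatic endothelial genes 3 were higher and none was lower, beside 6.6% and 8.91% of all genes, with a median of 0.59. They were Pdpn, the mucin podoplanin (0.78), Prox1, the transcription factor of lymphatic identity (0.70), and Reln, a secreted glycoprotein (0.58). Reln lost the call without repeat 2 or repeat 3 of DBM2 or without SF295 in the mean. Lyve1, the hyaluronan receptor that defines lymphatic vessels, read 8.43, 8.36 and 8.19 against 6.77 to 9.68 and did not pass (0.59, adjusted p = 0.117). The list members Flt4 and Mmrn1 did not pass either (adjusted p = 0.994 and 0.530). Higher genes numbered 3 against SF295, 2 each against U118 and U251M2, and 1 against U87M2, where 1 was also lower. PROX1 was also higher in DBM2 on human arrays, by 1.42. Among 14 pericyte and smooth muscle genes 2 were higher and 2 lower, beside 6.6% and 8.91% of all genes. Rgs5, a regulator of G protein signalling in pericytes, read 6.72, 6.38 and 6.40 against 6.18 to 8.84, median 8.38. It was low in DBM2 but overlapped the other arrays, with a difference of -1.62 (SE 0.24). Pdgfrb, the receptor that recruits pericytes and is also found on fibroblasts, was higher at 10.11, 10.48 and 9.80 against 8.30 to 9.80, a difference of 1.23 (SE 0.13). Cspg4, the proteoglycan NG2, was higher by 0.77. The few called members of this list went in both directions, and 10 of the 14 were not called. The other lower gene was Myh11, the myosin of smooth muscle (-0.25), whose call was lost in 12 of 25 other fits.

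Fibroblast genes were higher in DBM2 for 7 of 15 and lower for 1 (6.6% and 8.91% of all genes), with a median of 0.44. Besides Fap, Mfap5, an elastic microfibril glycoprotein, read 9.86, 9.62 and 9.96 against 7.83 to 9.30, median 8.53, and differed by 1.23 (SE 0.21). It was set apart from each line, as was Thy1, a surface glycoprotein of fibroblasts, at 0.93. On the human arrays MFAP5 was higher in DBM2 by 5.64, the largest human difference of any gene named here, while THY1 was lower by -0.89. Lox, which cross-links collagen, differed by 0.91. Sfrp2, a secreted Wnt modulator, was the gene on the lower side (-0.79, adjusted p = 0.0372), and it lost the call in 11 of 25 other fits. Over the 15 genes with a partner, 3 were higher and 11 lower in DBM2 on the human arrays, with a median of -1.10. The shares of all partners there were 15.6% and 20.3%.

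Collagen genes were higher for 12 of 21 and lower for none (6.6% and 8.91% of all genes), with a median of 0.37. Collagen and fibroblast lists share Col1a1, Col1a2 and Col3a1, so their counts are not separate. Col6a3, a chain of the beaded-filament collagen, read 10.01, 10.52 and 10.24 against 8.37 to 10.09, median 8.85, and differed by 1.22 (SE 0.14). Repeat 1 lay just below the highest other array. Col15a1, a basement-membrane collagen, read 9.46, 9.57 and 9.36 against 7.87 to 9.05 and was set apart, at 1.19 (SE 0.08), as was the fibril-forming chain gene Col5a2, at 0.91. Col8a1, a short-chain collagen of vessel walls, differed by 1.12, Col6a1 by 0.81, and Col14a1, a fibril-associated collagen, by 0.78. The line matters here: 18 of 21 were higher than in U118 (13.9% of all genes), 15 than in SF295 (17.1%), 11 than in U87M2 (4.7%) and 2 than in U251M2 (2.02%), while 3 were lower than in U251M2. On human arrays 6 of the 21 were higher in DBM2 and 12 lower (15.6% and 20.3% of all partners), and COL14A1 was lower by -2.84.

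Of 17 other matrix glycoproteins and proteoglycans 9 were higher and 4 lower, beside 6.6% and 8.91% of all genes. Against single lines 11 were higher than in U118 (13.9% of all genes), 7 than in U87M2 (4.7%) and 6 than in SF295 (17.1%). Against U251M2 3 were higher (2.02%) and 1 lower, with a median of 0.0. The list mean was 9.38 in DBM2 and 9.26 in U251M2. Vcan, the large proteoglycan versican, read 9.82, 9.66 and 9.62 against 8.12 to 9.0, median 8.55. It lay above every other array and was set apart, at 1.18 (SE 0.14). Fn1, fibronectin, read 12.16, 12.02 and 11.91 against 9.95 to 11.95 and differed by 1.05 (SE 0.22), with repeat 3 within the range of the others. Aspn, a small collagen-binding proteoglycan, also differed by 1.05 with a larger SE of 0.33 (adjusted p = 0.0300), and lost the call in 5 of 25 other fits. On the lower side, Hmcn1, a giant basement-membrane protein, read 6.99, 6.62 and 6.38 against 4.63 to 10.60. Its DBM2 arrays lay inside this wide range, and its difference was -1.0 (SE 0.17). The call was lost without U118 in the mean, which also took the lower count from 4 to 2, and where all probe sets of a gene were averaged. The count of 9 became 5 without repeat 1 or repeat 2 of DBM2 or without U118 in the mean.

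Of 17 matrix proteases and their inhibitors 9 were higher and 2 lower, beside 6.6% and 8.91% of all genes. The median was 0.45, and 4 were set apart on the higher side, beside 0.838% of all genes. Mmp13, a collagenase, read 9.75, 10.73 and 7.62 against 6.22 to 9.33, median 7.75. Its spread within DBM2 was wide, repeat 3 fell below the median of the others, and the difference of 1.69 had an SE of 0.44 (adjusted p = 0.00877). This call was lost without repeat 1 or repeat 2 of DBM2 or without U118 in the mean. Mmp10, stromelysin-2, read 7.66, 7.95 and 6.91 against 5.88 to 6.99 and differed by 1.19 (SE 0.14), while MMP10 on human arrays was higher by 3.88. Mmp14, the membrane-anchored activator of other metalloproteases, differed by 0.79 and Timp3, a matrix-bound inhibitor, by 0.77. The lower count was 0 without repeat 1 or repeat 2 of DBM2.

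**Figure D2:**
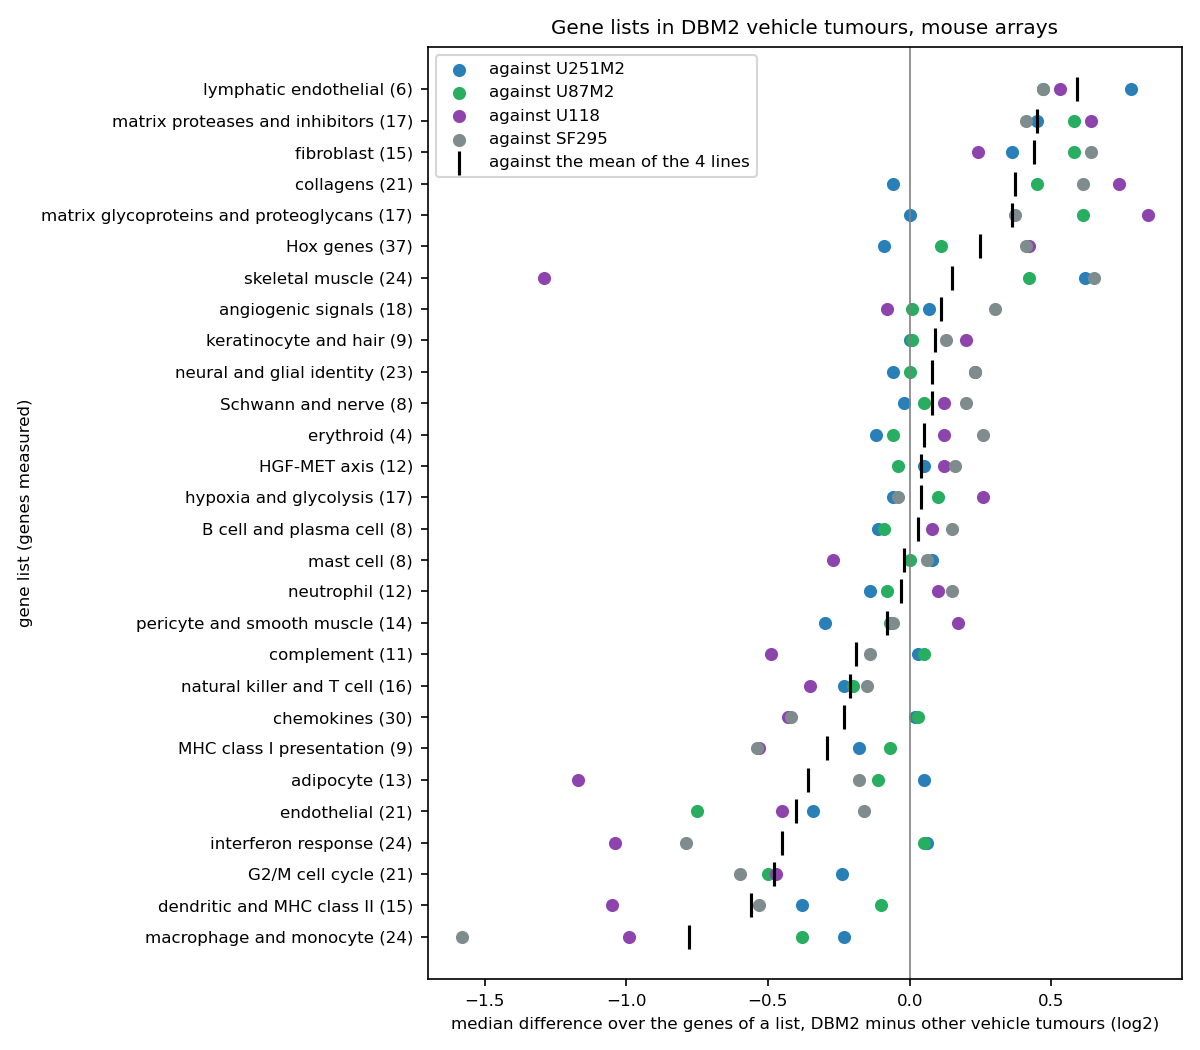
Median log2 difference over the genes of each list (horizontal axis), DBM2 vehicle minus each single line (coloured points) and minus the mean of the 4 lines (black bar), for the 28 lists named on the vertical axis with the number of genes measured. The macrophage list lies at -0.78 against the mean, from -1.58 against SF295 to -0.23 against U251M2, while the points for the interferon list against U87M2 and U251M2 lie near 0.

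Cell cycle genes of the G2 and M phases were lower for 16 of 21 (8.91% of all genes), with a median of -0.48. Mki67, the proliferation marker Ki-67, read 7.43, 7.04 and 7.01 against 7.33 to 8.62, median 8.15, a difference of -0.96 (SE 0.13). Only repeat 1 reached the range of the others. Aurkb, a kinase of chromosome separation, read 7.29, 7.23 and 7.15 against 7.63 to 8.20 and was set apart from each line, at -0.70 (SE 0.08). Kif11, a spindle motor, differed by -0.70, Bub1, a spindle checkpoint kinase, by -0.62, Nusap1, a spindle-associated protein, by -0.60, and Cdk1, the kinase that drives entry into mitosis, by -0.56. Kif11 lost its call without repeat 2 or repeat 3 of DBM2, and Nusap1 without repeat 2 of DBM2 or without SF295 in the mean. Against SF295 17 of the 21 were lower (14.7% of all genes), against U118 15 (12.8%), against U87M2 13 (4.65%) and against U251M2 1 (2.28%), the last a share near that of all genes. On the human arrays 6 of these 21 genes were lower and 1 higher (20.3% and 15.6% of all partners), with a median of -0.29.

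Hox genes are the homeobox factors that fix position along the body axis. Of 37 measured 19 were higher and 1 lower, beside 6.6% and 8.91% of all genes, with a median of 0.25. Hoxb3 read 9.19, 9.76 and 9.79 against 7.88 to 9.43, median 8.35, a difference of 1.11 (SE 0.11). Its repeat 1 overlapped the other arrays. Hoxc9 read 7.82, 7.68 and 7.73 against 6.34 to 7.30 and was set apart at 1.05 (SE 0.07). Hoxb6 at 0.81 and Hoxb4 at 0.75 were set apart as well, and Hoxb2 differed by 0.89. Hoxd8 was the gene on the lower side, at -0.67. On human arrays 13 of 26 partners were higher in DBM2 and 3 lower, beside 15.6% and 20.3% of all partners. HOXB3 was higher there by 2.17 and HOXB6 by 2.07, and HOXD8 was lower by -0.67. The count of 19 became 12 without SF295 or without U118 in the mean, and against U251M2 alone 4 were higher and 4 lower. Against U87M2 13 were higher and 5 lower. The list mean was 6.76 in DBM2 and 6.81 in U251M2.

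The ligand and receptor of the axis that V-4084 targets were not called on the mouse arrays at baseline. Hgf, the ligand of MET, read 7.03, 6.98 and 6.79 in DBM2 against 6.73 to 7.42, median 6.99. The groups overlapped fully, and the difference was -0.12 (SE 0.10, adjusted p = 0.490), although HGF on human arrays was lower in DBM2 by -3.83. Met, the receptor, read 6.38, 6.48 and 6.45 against 5.81 to 7.02 and differed by -0.05 (SE 0.07, adjusted p = 0.692), beside 0.20 on human arrays. Of 12 genes of this axis 3 were higher and 1 lower, beside 6.6% and 8.91% of all genes. They were Plau, the urokinase that can activate HGF (0.44), Hpn, the activating protease hepsin (0.28), Mst1r, a receptor related to MET (0.20), and Gab1, the docking protein of MET (-0.25). Every one of these calls was lost in at least 1 fit that left out a DBM2 repeat, and Mst1r was lost in 17 of 25 other fits. On human arrays 2 of the 12 partners were higher in DBM2 and 3 lower, beside 15.6% and 20.3% of all partners.

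Neural and glial genes were higher for 4 of 23 and lower for 1, beside 6.6% and 8.91% of all genes. Besides Cnksr2, Nes, the filament protein nestin of progenitor cells, differed by 0.76, Egfr, the epidermal growth factor receptor, by 0.43, and Snap25, a protein of synaptic vesicle fusion, by 0.37. Slc1a3, a glutamate transporter of astrocytes, was lower by -0.31. Of 8 Schwann and nerve genes, Egr2, a transcription factor of myelination and of activated macrophages, was set apart on the higher side at 0.94, Ncam1, a neural adhesion molecule, was higher by 0.50 and Pmp22, a myelin protein, was lower by -0.54. Hypoxia and glycolysis genes showed 2 higher and 1 lower of 17, near the 6.6% and 8.91% of all genes, with Slc2a1, the glucose transporter GLUT1, at 0.53. Each of these calls except those of Cnksr2 and Egr2 was lost in 1 to 4 of 25 other fits. Among tissues that lie next to a flank tumour, 2 of 13 adipocyte genes were lower (0 without U118 in the mean or without repeat 3 of DBM2, and 5 without U251M2), none of 24 muscle genes was called, 1 of 9 keratinocyte genes was higher (0 without any 1 repeat of DBM2 and without U118 or U87M2 in the mean), and none of 4 erythroid genes was called.

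MicroRNA genes supplied some of the largest differences on the mouse arrays. MicroRNAs are short RNAs that pair with messenger RNAs through a seed at their 5′ end, and their hairpins are highly alike in human and mouse. The naming rule left small RNA genes out, so the following 6 were chosen after their values were seen, as the microRNA genes with the largest differences among those called with no overlap between groups. Their mature sequences are shown because the array probe sets read the gene or hairpin transcript and not the mature arm, and because they show which of these genes share a seed. All 6 symbols were matched to the human RefSeq table (GRCh38.p14), and capitals mark the seed, bases 2 to 8. The loci are chr17:48579904-48579926, minus strand, for miR-10a, chr9:21512158-21512178, minus, for miR-31, chr5:168768211-168768231, minus, for miR-218 from MIR218-2, chr11:122146568-122146589, minus, for let-7a from MIRLET7A2, chrX:45746180-45746202, minus, for miR-221 and chr21:16539838-16539859, plus, for let-7c.
hsa-miR-10a-5p: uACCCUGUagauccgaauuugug
hsa-miR-31-5p: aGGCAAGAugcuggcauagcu
hsa-miR-218-5p: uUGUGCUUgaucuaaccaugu
hsa-let-7a-5p: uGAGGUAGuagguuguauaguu
hsa-miR-221-3p: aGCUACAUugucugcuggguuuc
hsa-let-7c-5p: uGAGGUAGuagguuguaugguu

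Mir10a, which lies in the Hoxb gene cluster, read 6.14, 6.11 and 6.40 in DBM2 against 2.76 to 3.94, median 3.14. It stood far above every other array, with a difference of 2.96 (SE 0.15, adjusted p = 1.76e-12) and of 2.58 for MIR10A on human arrays. Mir31 read 8.78, 8.45 and 8.24 against 4.94 to 7.11, median 5.63, where the high end was SF295. Its difference was 2.65 (SE 0.12), beside 3.13 for MIR31, and on the human arrays SF295 was again the nearest line. Mir218-2, which lies within the Slit3 gene, read 7.27, 7.59 and 7.04 against 5.21 to 5.93 and differed by 1.69 (SE 0.10), beside 1.32. DBM2 was the highest line on both platforms for these 3 genes, and the order of the other lines differed between the platforms.

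The let-7 genes split although the 2 mature sequences share the seed GAGGUAG. Mirlet7a-2 was higher at 9.55, 9.51 and 9.40 against 6.58 to 9.05, median 8.46, a difference of 1.46 (SE 0.14), beside 1.41 for its human gene. Mirlet7c-1 was lower at 5.92, 5.53 and 5.73 against 6.19 to 7.46, a difference of -0.96 (SE 0.16), beside -1.19. Their host transcripts followed the same signs, with Mir100hg at 0.39 and Mir99ahg at -0.85. Mir221 read 9.46, 9.40 and 9.21 against 6.79 to 8.96 and differed by 1.29 (SE 0.13), beside 1.25, with U251M2 the lowest line on both platforms. Over all 300 microRNA genes tested, 45 were higher and 4 lower, with a median difference of 0.11, and 6 and 2 were set apart. Over all genes 6.6% were higher and 8.91% lower, and 0.838% and 0.492% were set apart. The share of human transcripts in these mouse-array values was not tested. Another small RNA gene chosen after its value was seen, Snord118, which encodes the U8 nucleolar RNA of ribosomal RNA processing, read 9.82, 10.74 and 11.27 against 6.19 to 9.24. All 3 DBM2 arrays lay above the others although they spread widely, and the difference was 2.91 (SE 0.40, adjusted p = 8.27e-06).

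**Figure D3:**
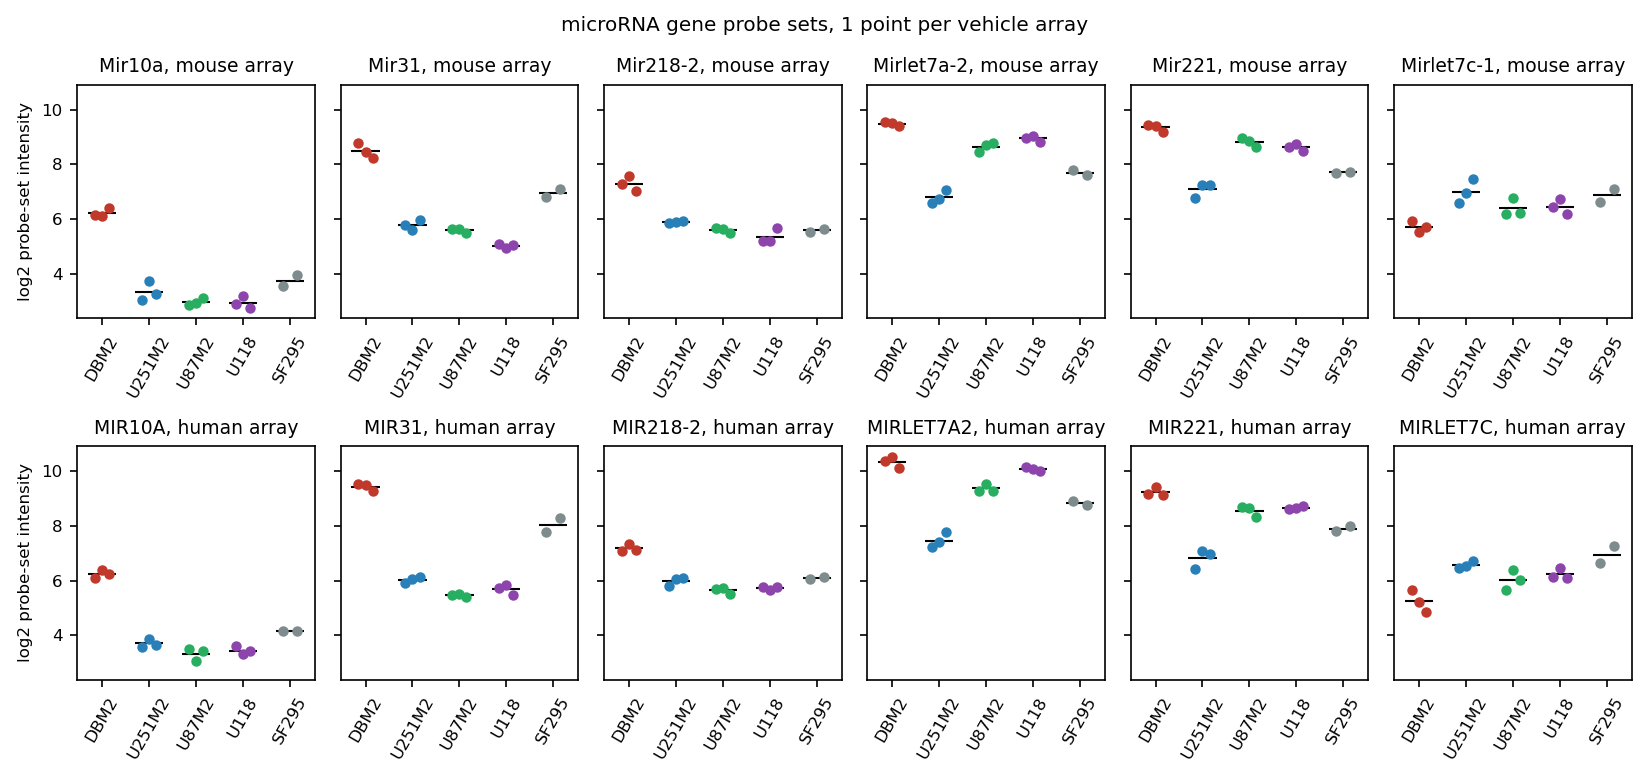
Log2 probe-set intensity (vertical axis) of 6 microRNA genes on the mouse vehicle arrays (upper row) and of their human counterparts on the human vehicle arrays (lower row), 1 point per array, grouped by line, with a bar at each group mean. DBM2 is the highest group for 5 genes and the lowest for let-7c on both platforms, as in Mir10a, which reads at least 6.11 in DBM2 and at most 3.94 elsewhere on mouse arrays.

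Across all genes the DBM2 differences on both platforms were loosely related. Over the 14334 shared symbols they correlated at r = 0.293, a description across genes, which are not independent and share the same tumour lines. On the human arrays 2241 of these genes were higher in DBM2 (15.6%) and 2903 lower (20.3%). Of 1103 mouse-array increases with a partner, 528 were higher on human arrays too (47.9%), 162 were lower (14.7%) and 413 were not called (37.4%). Of 1548 decreases, 674 were lower on human arrays (43.5%), 150 higher (9.69%) and 724 not called (46.8%). Among the genes set apart, 91 of 148 increases and 54 of 86 decreases had a human difference called in the same direction, and 24 and 6 had the opposite one. Tnc, Igfbp5 and Fap were among those that ran opposite on both platforms. The muscle transcript Ckm, at 7.17, 8.36 and 10.10 on the mouse arrays of DBM2 repeats 1 to 3, had its human-array counterpart CKM at 5.92, 6.23 and 6.77 on the same-numbered arrays. In U251M2 Ckm read 8.395, 7.865 and 7.05, and CKM 6.175, 6.025 and 5.922. The SF295 repeats also kept their order, and those of U87M2 and U118 kept it in part. The median of all human-array values was 6.73, so these CKM values are low or middling. Ckm was not taken by the naming rule, and no other muscle gene was compared array by array between platforms. The labels do not say that arrays of the same number on both platforms share a tumour. The human arrays are labelled as cultured cells. Whether they hold tumour RNA was not tested, so a human-array difference given here may not be that of cancer cells alone.

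**Figure D4:**
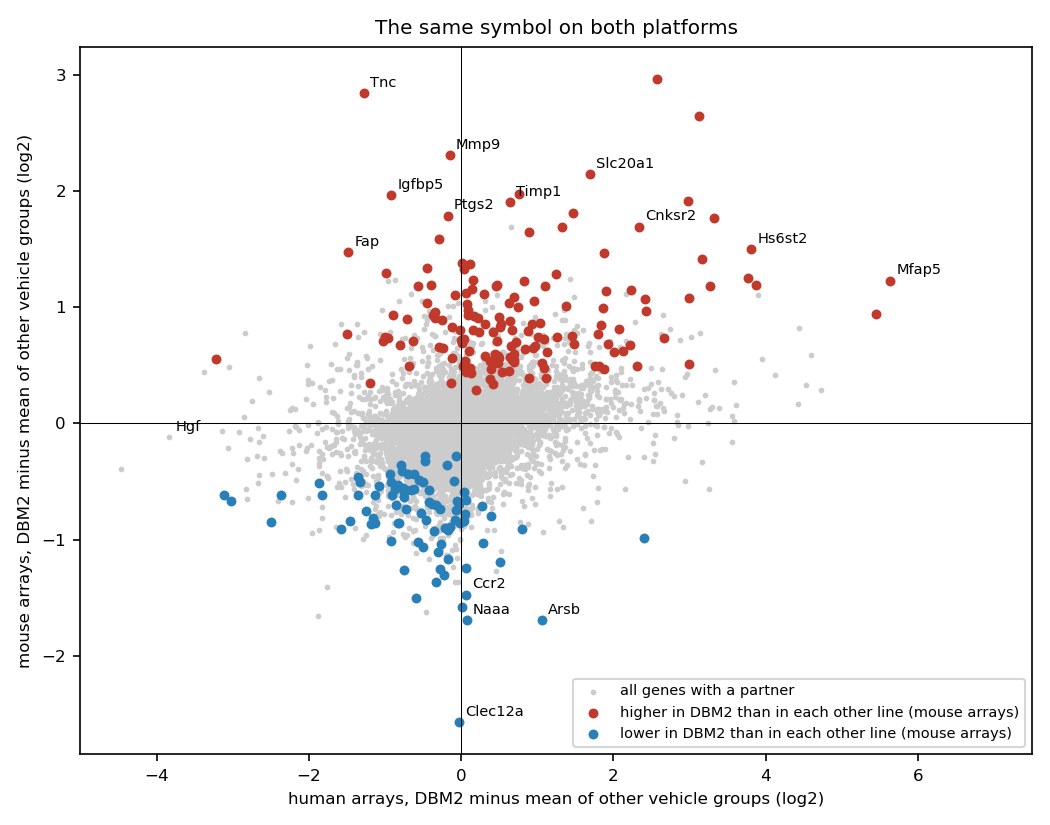
Difference of DBM2 from the mean of the other 4 vehicle groups for the same symbol on human arrays (horizontal axis, log2) and mouse arrays (vertical axis, log2), 1 point per gene for 14334 genes in grey. Genes set apart from each other line on mouse arrays are red (higher) or blue (lower), with Tnc at -1.28 and 2.84, Cnksr2 at 2.34 and 1.69, and Clec12a at -0.03 and -2.57.

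The DBM2 pattern was measured again in separate arrays, those of the tumours given V-4084, where DBM2 was compared with the mean of the 4 other V-4084 groups. There 6009 genes were called (30.1%), 3281 higher (16.5%) and 2728 lower (13.7%). Without DBM2 repeat 1 this count was 2865 and without repeat 3 it was 3479. Of the 1315 vehicle increases 1002 (76.2%) were also higher under V-4084, which is 30.5% of the increases there. Of the 1776 decreases 1482 (83.4%) were also lower, or 54.3% of those there, and no gene was called in opposite directions. All but 1 of the 41 genes taken by rule as largest differences were called again, the exception being Mt2 (0.59, adjusted p = 0.0598). The size was close for the leaders, with Tnc at 2.88, Mmp9 at 2.33, Igfbp5 at 2.00, Cnksr2 at 1.79 and Clec12a at -2.79. The macrophage list had 22 of 24 genes lower with a median of -0.93, the endothelial list 14 of 21 with -0.35, and the collagens 11 of 21 higher with 0.32. The interferon list had 23 of 24 lower with -0.73, against -0.45 in vehicle tumours. Other lists recurred less. The fibroblast list had 4 higher and 3 lower with 0.21, against 7, 1 and 0.44 in vehicle tumours. Other matrix glycoproteins had 7 higher and 4 lower with 0.18, against 9, 4 and 0.36. G2 and M phase genes had 13 lower with -0.29, against 16 and -0.48. A limma test of whether the DBM2 difference itself changed between vehicle and V-4084 called 0 genes at an adjusted p under 0.05, with 1016 genes at an unadjusted p under 0.05.

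**Figure D5:**
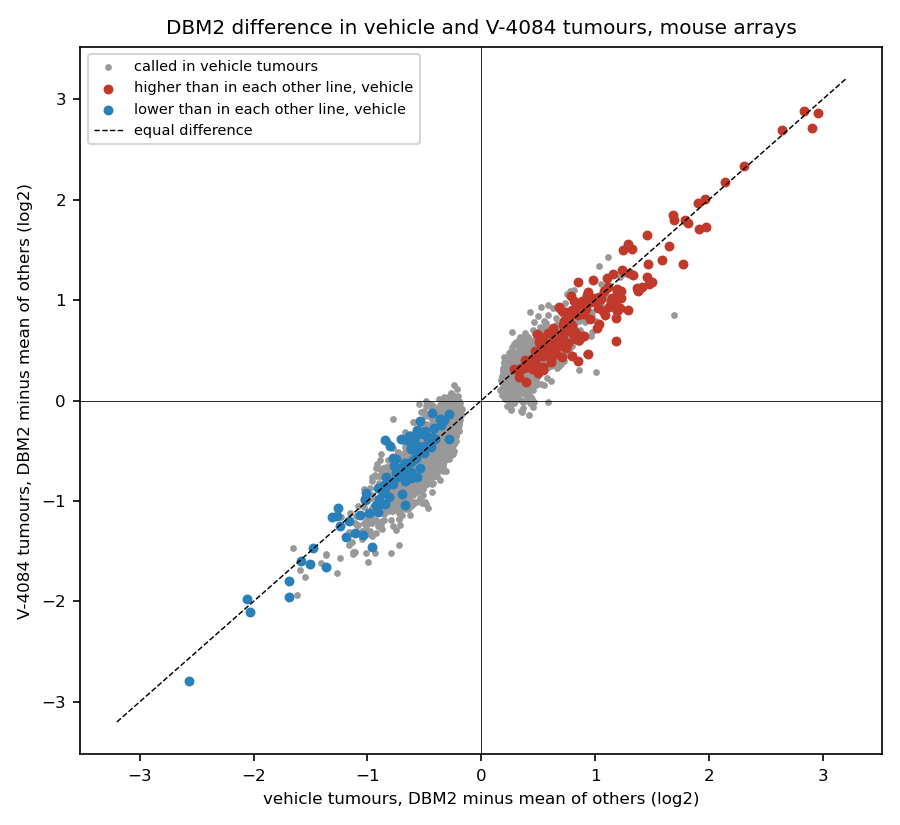
DBM2 minus the mean of the other lines in vehicle tumours (horizontal axis, log2) and in V-4084 tumours (vertical axis, log2) on mouse arrays, 1 point for each of the 3091 genes called in vehicle tumours. The 167 genes set apart on the higher side (red) and the 98 on the lower side (blue) lie along the dashed line of equal difference, from Clec12a at -2.57 and -2.79 to Mir10a at 2.96 and 2.86.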

How the data were processed

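Gene arrays of 28 human and 28 mouse samples were used. The authors deposited log2 intensities per probe set, made with RMA and Partek per the submitters' processing notes, with versions not given in the sources used here. They were used as deposited, and RMA already equalises array distributions, so differences are relative to the other arrays.

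Of 35556 mouse probe sets 21789 name 1 gene, 1621 several and 12146 none, per the platform annotation. Probe sets naming 1 gene were kept, the brightest per gene. Limma 3.58.1 in R 4.3.3 fitted 10 group means on the 28 mouse arrays (18 residual degrees of freedom, eBayes without trend), two-sided, with Benjamini-Hochberg adjustment over 19938 genes. Human arrays were fitted alone in the same way. The fit was tested on simulated data. Array number limits the precision. The labels name no scan batch.

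The members, the 28 gene lists and the naming rule were chosen with earlier results of these data known. The rule took the 15 largest differences in each direction among called genes without overlap, the 10 largest whose human difference was opposite or under 0.5, the 5 largest without a human symbol, Cnksr2, Hgf and Met, and up to 6 members of a list. Predicted and small RNA genes were not named, except 6 microRNA genes, 2 host transcripts and Snord118, chosen after their values were seen. The test of change with V-4084 and the loss counts per gene were also added then. Human V-4084 arrays of DBM2, whose labels also name SF295, enter the human fit through its spread only. One gene that the rule takes is not reported here.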

Additional observations from a re-analysis of the deposited data

How the results depend on the processing

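Of 204 named genes 149 were called, and over 25 other settings 41 of them lost the call at least once and none changed sign. None of the 41 genes taken by rule as largest differences lost it. Those genes were picked from the same arrays for large called differences without overlap, so their kept calls say little about robustness. The baseline count of 3091 (1315 higher, 1776 lower) was within 1.5 times in fits on the vehicle arrays alone, with trend, quantile normalization, no dim genes, averaged probe sets or arrays weighted equally. It was 1993 without SF295 in the mean (1110 lower), and without U251M2 the higher count was 2149. Requiring 1.5-fold left 683 calls (275 higher, 408 lower).

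Leaving out 1 array gave 1855 to 3375 calls (801 to 1410 higher, 1004 to 1965 lower), and 103 to 169 genes set apart on the higher and 52 to 101 on the lower side. Against single lines it gave 2783 to 6431 for SF295 (lowest without SF295 repeat 2), 3591 to 4987 for U118, 1205 to 1863 for U87M2 (1205 without its repeat 1, 1227 without its repeat 3) and 501 to 597 for U251M2 (515 without DBM2 repeat 2, 547 and 501 without U251M2 repeats 1 and 3). The V-4084 count ran from 2865 to 6805. Where this left SF295 vehicle or U251M2 V-4084 with 1 array, that array is assumed to vary like the others.

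With the repeat number as a replicate block, 2997 genes were called (1300 higher, 1697 lower). Among mouse vehicle arrays of different lines, those with the same number deviated together no more than others on average (mean r = -0.0287 over 26 pairs against 0.0144 over 52). Whether the number marks a batch or shared handling was not tested. Arrays give no read depth, and low probe sets bound what dim genes can show.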
